A study of Drosophila melanogaster with 12 samples.

Results

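Pumilio (Pum) is an RNA-binding protein that recognises short motifs in the 3′ UTRs of mRNAs. Libraries of transcript 3′ ends from adult Drosophila melanogaster heads were examined here for the 7 genes that encode the glutamate receptors GluRIA, GluRIB, Nmdar1, Nmdar2 and mGluR, the glutamate-gated chloride channel subunit GluClalpha and the vesicular glutamate transporter VGlut. The members were the rows of the deposited table of 3′-end clusters that name one of these genes by its FlyBase identifier. A cluster is a short stretch of genomic bases at which reads primed from a poly(A) tail end. The rule found 58 of 31435 distinct clusters, belonging to 7 of 9576 genes, and none of the 58 named another gene or appeared more than once in the table. The members held 71697 of 141453778 reads, or 0.0507%.

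The 12 libraries came from UV-cross-linked head powder of adult flies. Of 4 groups of 3 libraries, a pair is from pumFlag flies, which express Pum with a C-terminal Flag-HA tag from its own locus, and a pair from untagged w1118 flies. Each pair holds an input and an IP group, where IP is RNA recovered with anti-Flag beads, and males and females were used in equal amounts. Whole heads hold brain, retina, fat body and muscle, so fewer cells of a type and less RNA per cell cannot be told apart. The 12 count columns of the table carry no library name. Each value below is therefore the sum of a cluster over all 12 columns, called pooled reads, and this sum mixes input with IP and tagged with untagged flies. It is neither an expression level nor a measure of Pum binding, it has no replicate spread, and neither IP and input nor the genotypes are compared. What the pooled reads do show is where along each gene the sequenced 3′ ends lie. Intervals are 95% Wilson intervals of a share of pooled reads. They cover counting error only, with each read taken as independent, and leave out the spread between libraries. The reads carry no molecular identifiers, so copies of the same molecule cannot be told apart and the intervals may be too narrow.

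Glutamate excites postsynaptic cells through ionotropic receptors, which are ion channels, and modulates them through G protein-coupled metabotropic receptors. In insects it also inhibits neurons through glutamate-gated chloride channels, a receptor class that vertebrates lack. The glutamate released at a synapse is loaded into vesicles by a vesicular transporter, and it is taken up again mainly by glia. In flies, motor neurons release glutamate onto muscle, while acetylcholine is the main excitatory transmitter of the brain. The 3′ UTR in which an mRNA ends sets which binding sites it carries, and Pum is best known for lowering the translation or the stability of mRNAs that hold its element.

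The Pum element was searched as TGTANATA, where N is any base, on the strand of the gene. The 3′ UTR searched was the longest one that ran to a supported 3′ end, meaning an annotated transcript end with a cluster within 50 bases, and it was extended to the last base of that cluster. For mGluR, which had no supported end, the longest annotated 3′ UTR was used. At least 1 motif was found in 5 of the 7 genes, against a background of 22% of 8490 protein-coding genes. The 7 3′ UTRs were long, however, with a median of 2931 bases against 269 bases over all genes, and on the opposite strand the same letters occurred 10 times, against 13 times on the gene strand. Per kilobase the members held 0.775 motifs, against 0.486 over all 3′ UTRs, where the opposite strand held 0.559. Among the 13 motifs the variable letter was A in 6, C in 3, T in 3 and G in 1. The first and the last motif of each gene are shown, since the reads that end beyond them are counted below. They are printed 5′ to 3′ on the gene strand of dm6, with 11 bases on either side and the motif in capitals.
GluRIA, first motif, chr3L:6634783-6634812, plus strand: tacgagtaactTGTAAATAattaaggcatt
GluRIA, last motif, chr3L:6634992-6635021, plus strand: ctaaactaaacTGTACATAggttaagtgaa
GluRIB, only motif, chr3L:9287350-9287379, plus strand: acgttctttatTGTACATAaaacatgcaaa
Nmdar2, only motif, chrX:1484484-1484513, minus strand: tattacgtataTGTATATAttttttaagac
GluClalpha, first motif, chr3R:19768379-19768408, plus strand: aattcgactttTGTAAATAtgtcatacaat
GluClalpha, last motif, chr3R:19770743-19770772, plus strand: aagagaacaagTGTAAATAtatgaacgaca
VGlut, first motif, chr2L:2408830-2408859, plus strand: atctagtagatTGTAAATAaatttgttacc
VGlut, last motif, chr2L:2410203-2410232, plus strand: tacttaagccgTGTATATAattagtaacaa

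The sum of pooled reads ranged over the 7 genes from 706 for Nmdar1 to 32843 for VGlut, of which 17023 lie outside the gene, at CG46448. Without these, VGlut held 15820 and was 877th, and GluClalpha was the highest. The median gene held 1735.5 pooled reads, with quartiles of 542.75 and 5052.25 over 9496 annotated genes. Of the members, 5 lay above that median. VGlut with 32843 pooled reads was 478th among these genes, GluClalpha with 26464 was 557th, GluRIA with 4807 was 2464th, Nmdar2 with 3754 was 2927th and GluRIB with 2173 was 4238th. mGluR with 950 pooled reads was 6108th and Nmdar1 with 706 was 6678th. A 3′-end library samples transcripts by their ends, so these sums were not divided by transcript length. The spread between libraries is not known, so the order of neighbouring genes was not tested. GluClalpha and VGlut together held 82.7% of the members' pooled reads, or 77.3% without those at CG46448. With 21 and 20 clusters they were also 2 of the 7 members with 20 or more clusters, while the median gene had 2. That number was reached by 1.21% of all genes, with no match for pooled reads. Of the 20 VGlut clusters, 2 lie at CG46448, and without these only GluClalpha reached 20.

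**Figure D1:**
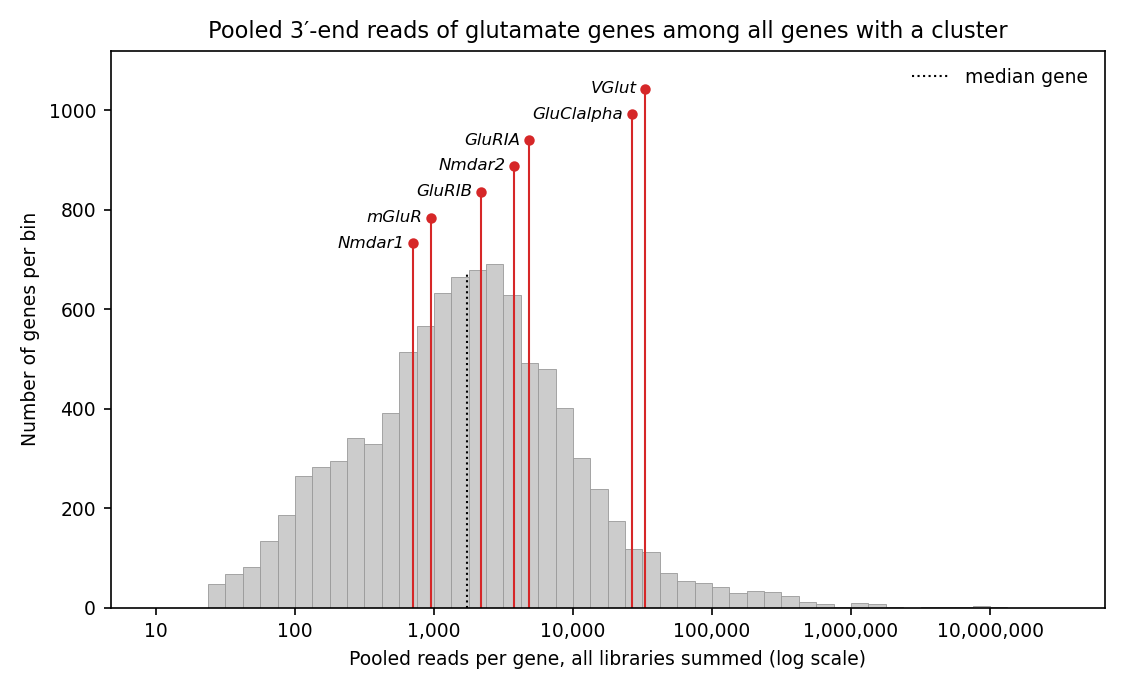
Histogram of pooled reads per gene (x axis, log scale, all 12 libraries summed) with the number of genes per bin on the y axis. Red lines mark the 7 genes, of which Nmdar1 at 706 and mGluR at 950 lie below the median of 1735.5 (dotted line) and VGlut and GluClalpha lie far to its right (the VGlut line includes the 17023 reads at CG46448); the heights of the red lines only separate the labels.

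Clusters were placed by their last base into the first position that applied, from an annotated 3′ end of the gene (at most 50 bases away) to other parts of a 3′ UTR, coding sequence, 5′ UTR, other exons, the 500 bases after an annotated end, intron and, last, positions outside the gene. At least 1 supported 3′ end was found for 6 of the 7 members, against 94.4% of protein-coding genes with a cluster, and mGluR was the exception. More than 1 supported end was found for 1 of the 7, GluRIB, against 16.8%. The genes nevertheless differed widely in how many of their reads lay at annotated ends. That share was 100% for Nmdar1, 95.9% for Nmdar2, 87.3% for GluRIA, 67.2% for GluRIB, 37.1% for VGlut, 0.639% for GluClalpha and 0% for mGluR. Over all protein-coding genes the median was 100% and the lower quartile 77.3%. Within 25 bases the share of GluRIB was 22.4%, and within 100 bases that of GluClalpha was 12.8%. Most reads of GluClalpha lay elsewhere in its 3′ UTR, most of mGluR in its 5′ UTR, and most of VGlut outside the gene.

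**Figure D2:**
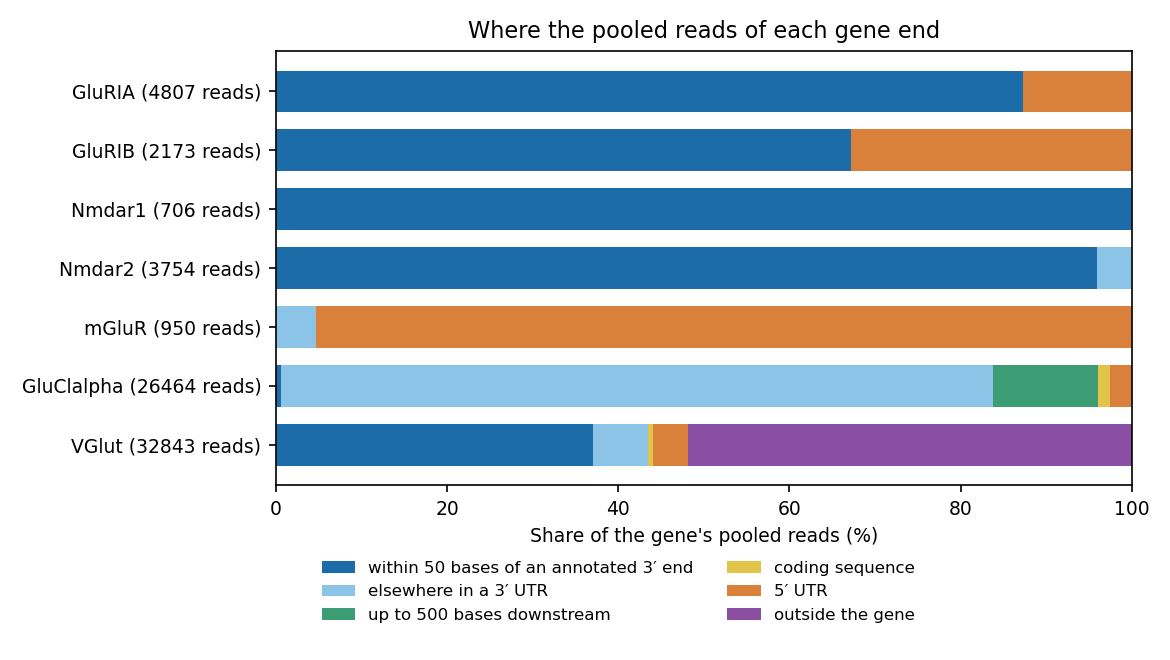
Share of each gene's pooled reads (x axis, percent) by the position of the clusters in which they lie, one bar per gene with its total of pooled reads. GluRIA, GluRIB, Nmdar1 and Nmdar2 have 67.2% to 100% within 50 bases of annotated 3′ ends (GluRIB has 22.4% within 25 bases), mGluR is 95.3% in its 5′ UTR, GluClalpha is 83.2% elsewhere in its 3′ UTR and VGlut is 51.8% outside the gene.

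GluRIA and GluRIB encode non-NMDA ionotropic subunits of the kind that in vertebrates forms AMPA receptors. GluRIA (FBgn0004619, chromosome 3L, 6624032 to 6635059, plus strand) has 1 annotated transcript, whose 3′ UTR measures 296 bases. It had 3 clusters. A cluster at 6635055 to 6635063 held 4142 pooled reads, a second one at 6635035 held 56, and one in the 5′ UTR at 6624214 held 609. The former 2 lie at the annotated end, at 6635059. AATAAA, the canonical poly(A) signal, ends 19 bases before the last base of the larger one. All 4198 reads of the 3′ UTR ended beyond both motifs, at positions 31 and 240 of its 300 bases, and the second motif lies 25 bases before the smaller cluster. Among the 1061 3′ UTRs of like length, which are those within 1.25 times its length either way, 17.9% held at least 1.

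GluRIB (FBgn0264000, chromosome 3L, 9251978 to 9288522, plus strand) has 4 annotated transcripts with 2 ends, and both were used. The proximal end at 9286775, where 3 transcripts with a 3′ UTR of up to 1394 bases end, held 199 pooled reads. Clusters at 9288543 and 9288552 held 287 and 975, which gives 1262 reads 21 to 30 bases beyond the distal annotated end at 9288522. The distal end thus took 86.4% (84.5% to 88.0%) of the reads in the 3′ UTR. The motif lies at position 1980 of 3171, between the ends, so that only mRNAs that end at the distal position carry it. All 10 bases that follow the proximal cluster are A, whereas 4 or 5 of the 10 bases behind the distal clusters are. The authors removed bases followed by such A stretches, where an oligo(dT) primer can anneal inside a transcript, except near annotated ends, and the part of internal priming in the 199 proximal reads was not tested.

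Nmdar1 and Nmdar2 encode subunits of the NMDA receptor, a channel that needs both glutamate and membrane depolarisation to open. Nmdar1 is the obligatory subunit, and Nmdar2 corresponds to the glutamate-binding GluN2 subunits of vertebrates. Nmdar1 (FBgn0010399, chromosome 3R, 5508842 to 5523328, minus strand) had the lowest sum of the 7, with 451 pooled reads at 5508842 and 255 at 5508824 to 5508829. Its reads therefore all lay at or within 18 bases beyond the single annotated end. Of the 10 bases that follow the cluster with 255 reads, 7 are A. The part of internal priming in these 255 reads was not tested. No motif occurs in the 954 bases of its 3′ UTR, where 36.2% of 769 3′ UTRs of like length held one. The search with the shorter core TGTANA found 5 matches there. This core fixes fewer letters, and it was not counted over all 3′ UTRs.

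Nmdar2 (FBgn0053513, chromosome X, 1483625 to 1507809, minus strand) has 7 annotated transcripts with 3 ends, of which the reads used 1. The most distal end, at 1483625, is annotated for 1 transcript, Nmdar2-RG, with a 3′ UTR of 2924 bases, and it held 3600 pooled reads. No read lay within 50 bases of 1486226, where 5 transcripts with 3′ UTRs of up to 323 bases end, or of 1488423. The table lists only clusters that reached a depth of at least 6 reads in 1 library, so fewer reads than that may lie there. A small cluster at 1484960 to 1484961, in the extended 3′ UTR, held the other 154 reads, 4.10% (3.51% to 4.79%). The motif lies at position 2047, between this cluster and the distal end, and 95.9% (95.2% to 96.5%) of the reads ended beyond it. Among 289 3′ UTRs of like length, 58.5% held the motif.

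mGluR encodes a metabotropic receptor, which acts through G proteins and not as a channel. The gene (FBgn0019985, chromosome 4, 936819 to 949441, plus strand) has 4 annotated transcripts with ends at 944486, 946825 and 949441. Of its 950 pooled reads, 0 lay within 50 bases of these ends. No read at any annotated end was found for 5.62% of protein-coding genes. Instead 905 reads, 95.3% (93.7% to 96.4%), lay in a cluster of 2 bases in the 5′ UTR at 936906 to 936907, which is 88 bases from the annotated start. The remaining 45 reads lay at 949190, which is 251 bases short of the last annotated end and has no poly(A) hexamer upstream. The sum of mGluR is thus mostly a count of reads near the start of the gene. No motif was found in the 2821 bases of its longest 3′ UTR, where 58.4% of 305 3′ UTRs of like length held one. The core TGTANA occurs 5 times in it, and TGTANAT 1 time, and neither was counted over all 3′ UTRs.

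Clusters in 5′ UTRs were found for 5 of the 7 genes, against 14.4% of protein-coding genes. A share of reads over 10% in the 5′ UTR was found for 3 of the 7, GluRIA with 12.7%, GluRIB with 32.8% and mGluR with 95.3%, against a background of 6.34%, and a share over 90% for mGluR alone, against 0.855%. Over all members there were 16 such clusters with 4251 reads, 5.93% of the members' total. Of the 16, 14 were 1 base wide, 12 had none of the 12 common poly(A) hexamers from 5 to 40 bases upstream, and 0 were followed by an A stretch, which is a run of at least 6 A or 7 A among 10 bases. The same forms occurred among the members' clusters elsewhere in 3′ UTRs, of which 20 of 27 were 1 base wide and 9 of 27 had a hexamer, and 5 of 10 clusters at annotated ends were 1 base wide. The source of the 5′ UTR reads was not tested. Over all genes, 32.3% of 5′ UTR clusters had a hexamer, against 80.8% of clusters at annotated ends.

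GluClalpha encodes a subunit of the glutamate-gated chloride channel, the target of the insecticide ivermectin. The gene (FBgn0024963, chromosome 3R, 19730715 to 19775231, plus strand) has 11 annotated transcripts with 4 ends, and its reads were spread over more positions than those of any other member. Clusters in the 3′ UTR or just downstream, with neighbours up to 50 bases apart joined, gave 13 separate ends. The most used one, at 19770895 to 19770907, held 9588 pooled reads, 37.7% (37.1% to 38.3%) of the 25413 reads of these ends. It lies 372 bases short of the annotated end at 19771279. The next, at 19770014 to 19770017, held 7494 reads (29.5%). Of the rest, the end at 19771363 to 19771370 held 3225 (12.7%) and the end of 2 clusters at 19768569 to 19768597 held 2836 (11.2%). The annotated end itself, shared by 4 transcripts, held only 169 reads. The ends annotated at 19764474, 19764665 and 19775231 held 0 within 50 bases. A share under 50% at the most used end was found for 4.06% of 8490 protein-coding genes, whose median was 100%. Less than 1% of reads at annotated ends was found for 2 of the 7 members, GluClalpha and mGluR, against a background of 5.74%. Within 100 bases, where the share of GluClalpha was 12.8%, it was no longer among them.

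The sequence behind the GluClalpha clusters divided them. All 10 bases that follow the most used cluster are A, and 9 of the 10 that follow the next one. An A stretch follows each of the 13 bases of the first and each of the 4 bases of the second, and neither has a poly(A) hexamer 5 to 40 bases upstream. Together with the small cluster at the annotated end, clusters of this kind held 17251 reads, 67.9% (67.3% to 68.5%) of the reads in the 3′ UTR and downstream. An A stretch also follows 7 of the 14 bases, though not the last, of the cluster at 19768584 to 19768597, which has no hexamer either, and with it the share was 74.5%. With hexamers sought up to 60 bases upstream, the 3 clusters with the 17251 reads still had none, whereas the one at 19768584 to 19768597 had one. By contrast the cluster at 19771363 to 19771370 lies 91 bases beyond the annotated end. It has AATAAA, which ends 28 bases before its last base, and 2 A among the next 10. Without clusters followed by an A stretch, it becomes the most used end, with 39.5% of the remaining reads. No other member had reads in the 3′ UTR at a cluster with an A stretch after its last base and no hexamer 5 to 40 bases upstream. A stretches follow 16.8% of the clusters elsewhere in the 3′ UTRs of all genes, so A stretches alone are not particular to GluClalpha. That share is one of clusters and not of reads, and it includes clusters with a hexamer. A stretches without a hexamer were not counted over all genes. The ends of the earlier annotation release that exempted positions from removal were not analysed here, and the part of internal priming in these reads was not tested.

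**Figure D3:**
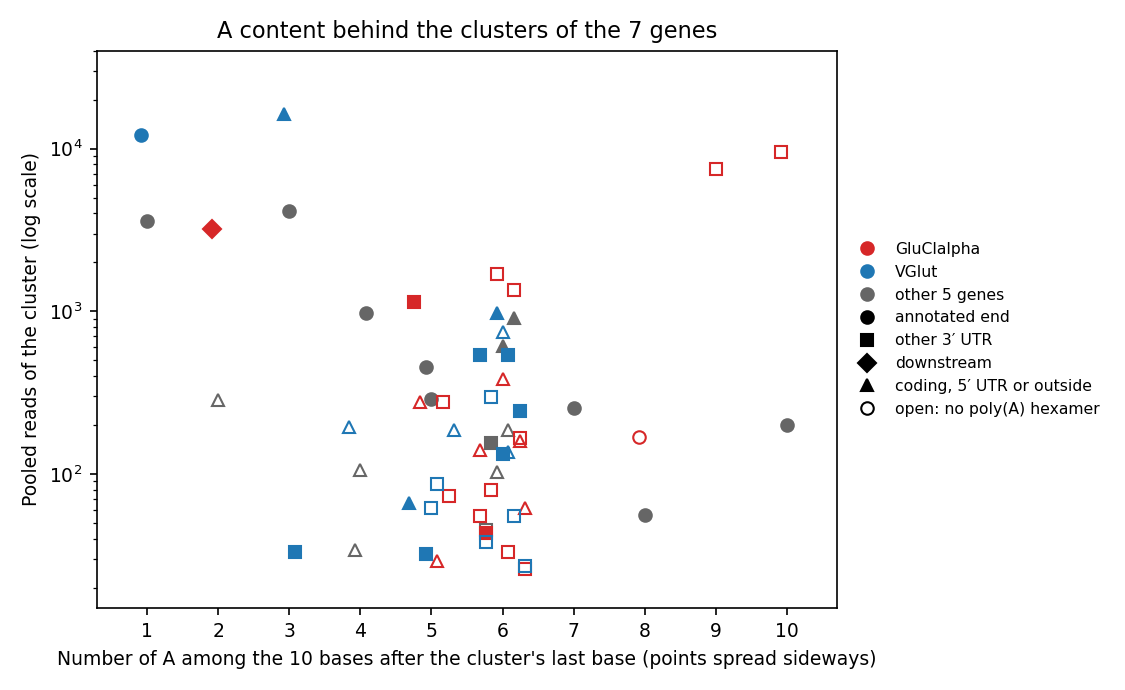
Pooled reads of each of the 58 clusters (y axis, log scale) against the number of A among the 10 bases that follow it (x axis, spread sideways within each number). Filled symbols have a poly(A) hexamer 5 to 40 bases upstream and open symbols do not, and the 2 open GluClalpha squares at 9 and 10 A hold 7494 and 9588 reads, whereas the VGlut end with 12186 reads and the Nmdar2 end with 3600 are filled and followed by 1 A.

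The 4 motifs of GluClalpha lie at positions 744, 809, 2484 and 3108 of its 3633-base 3′ UTR. The 25332 reads in this 3′ UTR or up to 500 bases past its end include the 3225 of the cluster 91 bases past it. Of the 25332, 99.9% (99.8% to 99.9%) ended beyond the first motif, and 98.8% beyond the second. The next motif lies 113 bases beyond the 7494-read cluster, and 52.4% (51.8% to 53.0%) of the reads ended beyond it. The last motif had 52.1% beyond it. GluClalpha mRNAs that end at these positions thus carry mostly 2 or all 4 of the motifs, if the A-rich positions are taken as ends. Transcripts that end at 19775231 have another last exon, of 523 bases of 3′ UTR, with 0 motifs, and the 2 clusters in it held 81 reads. The gene was 1 of 2 members with at least 4 motifs. That number was reached by 0.589% of 8490 genes, with no match for 3′ UTR length. Among 188 3′ UTRs of like length, 64.9% held at least 1.

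VGlut encodes the transporter that fills synaptic vesicles with glutamate and marks glutamatergic neurons. The gene (FBgn0031424, chromosome 2L, 2400295 to 2410662, plus strand) has 2 annotated transcripts with 1 shared end. Its clusters split between that end and a place outside the gene. A cluster at 2410651 to 2410668, at the annotated end at 2410662, held 12186 pooled reads. An AATAAA ends 28 bases before the last base of this cluster. A cluster at 2392100 to 2392112 held 16281 and another one at 2391721 to 2391726 held 742. These last 2 carry the identifier of VGlut in the table but lie 8183 and 8569 bases upstream of its annotated start, within or at the end of the gene CG46448 (FBgn0287218, chromosome 2L, 2391660 to 2392105, plus strand), which no cluster of the table names. They held 17023 reads, 51.8% (51.3% to 52.4%) of the reads given to VGlut. Among all 31435 clusters, 5 lie outside every gene they name, and 1 of these 5, the larger of the 2, lies within 50 bases of the end of another gene. Whether these reads belong to CG46448 or to a VGlut transcript that starts further upstream was not tested. Without both clusters, a choice made after the data had been seen, VGlut held 15820 reads and was 877th among all genes, below GluClalpha, and 77.0% of its reads lay at the annotated end.

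Within the VGlut 3′ UTR the annotated end was the main one, with 85.4% (84.8% to 86.0%) of 14270 reads. The other 12 clusters in the 3′ UTR held from 27 to 540 reads each, with a median of 74.5. With 5 motifs, at positions 1143, 1877, 2103, 2165 and 2516 of 2970, VGlut had more than any other member. Of the reads in its 3′ UTR, 97.1% (96.8% to 97.4%) ended beyond the first motif and 94.3% (93.9% to 94.7%) beyond the last. Nearly all pooled reads in this 3′ UTR thus come from ends that carry all 5. The 18573 reads given to VGlut elsewhere do not enter these shares. Among 278 3′ UTRs of like length, 58.3% held at least 1.

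**Figure D4:**
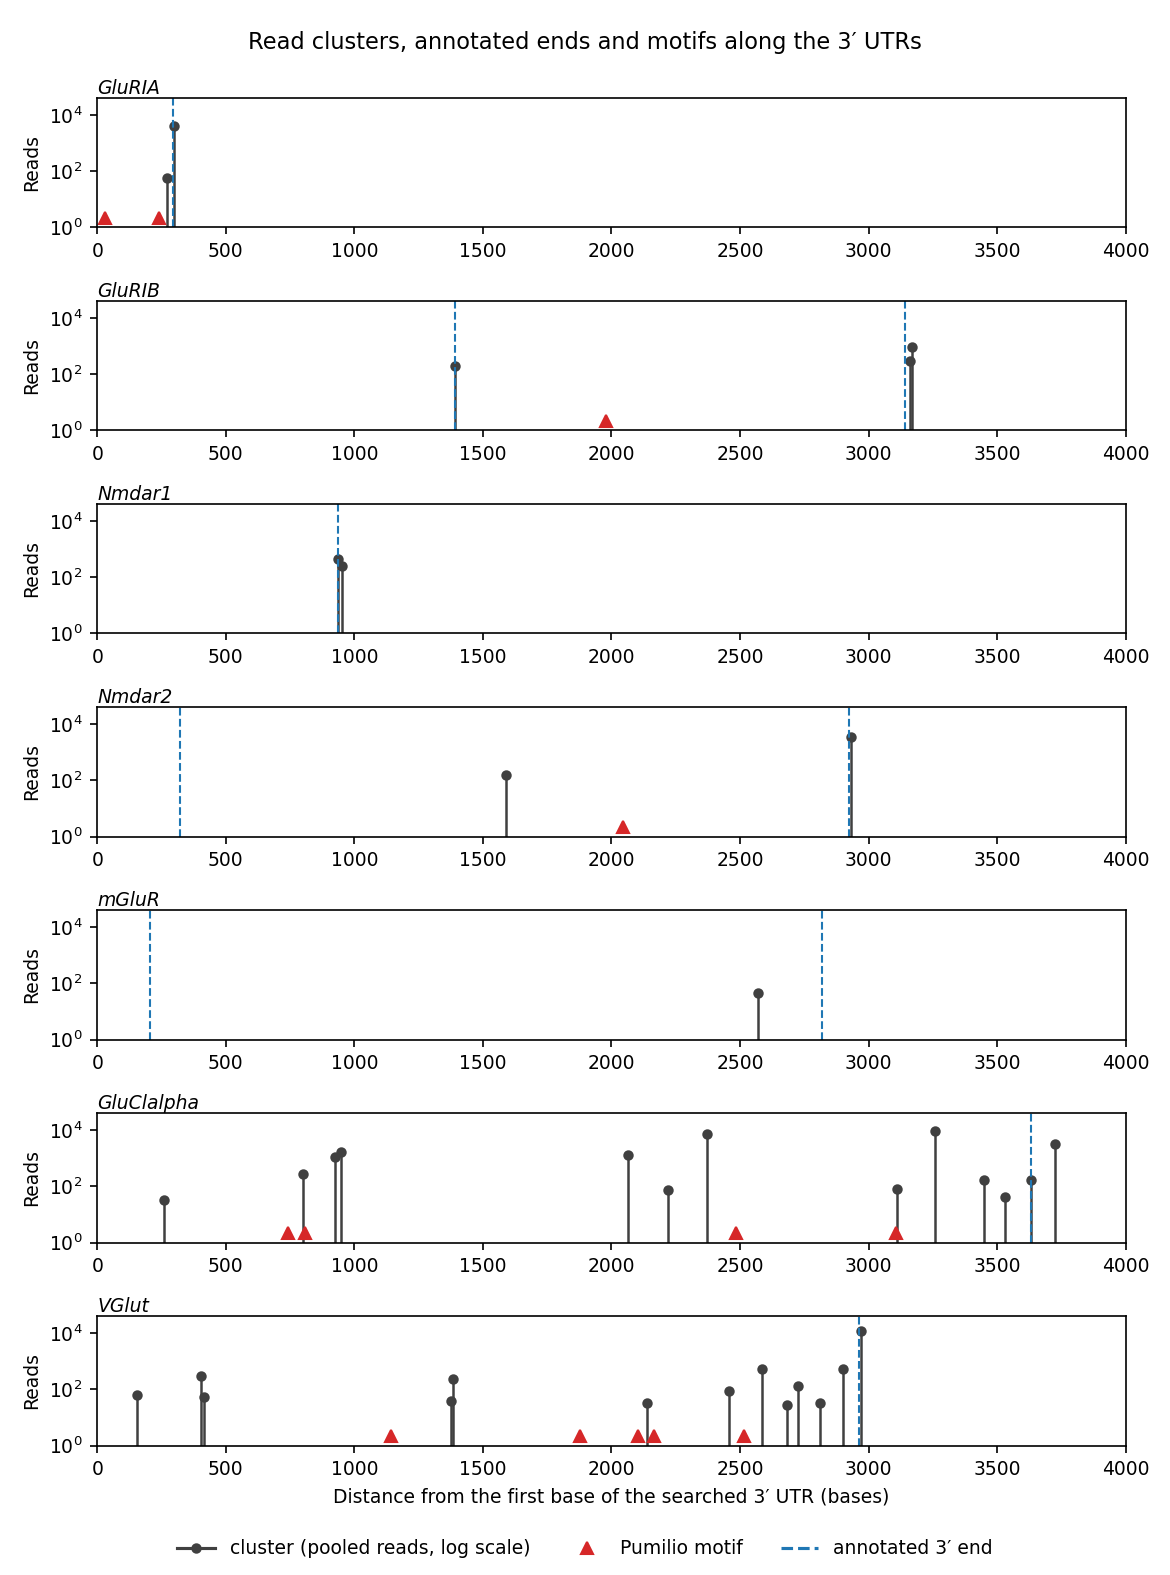
Clusters (black, pooled reads on a log y axis), Pum motifs (red triangles) and annotated 3′ ends (blue dashed lines) along the searched 3′ UTR of each gene, by distance from its first base (x axis). GluRIA, GluRIB, Nmdar1, Nmdar2 and VGlut have their tallest cluster at an annotated end, GluClalpha has 9588 reads 372 bases short of one, and mGluR has 45 reads; the end of another GluClalpha last exon lies beyond the axis.

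Poly(A) hexamers followed the same division. Among member clusters at annotated ends 9 of 10 had a hexamer, against 80.8% over all genes, and elsewhere in 3′ UTRs 9 of 27 did, against 53.8%. Those 27 clusters belong to 4 genes, with 13 in GluClalpha and 12 in VGlut. They share their genes, so their number is not one of independent sites. Of the 38 clusters in 3′ UTRs or downstream, 9 held at least 1000 reads, and 5 of these 9 had a hexamer, against 80.2% of 7231 such clusters over all genes. The 4 without one all belong to GluClalpha. From 5 to 60 bases upstream, the share of GluClalpha clusters with a hexamer was 38.1%, against 14.3% from 5 to 40, and 3 of these 4 still had none.

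Other genes of glutamate signalling were read from a list of 23. Of these, 15 had a cluster. The share of all annotated genes with a cluster was not counted, so this number has no background here. A motif was found in 8 of the 15, against 22% of all genes with a supported end and with no match for 3′ UTR length, and a supported end in 15 of 15, against 94.4%. The 3 with the most pooled reads were Gs2, a glutamine synthetase, with 62997, Got2, the mitochondrial aspartate aminotransferase, with 32304, and Eaat1, the glial glutamate transporter, with 30300. Of the 9 further ionotropic receptors on the list, 2 had a cluster, again with no background. Only GluRIIA with 43 pooled reads and KaiR1D with 440 had a cluster, while GluRIIB, GluRIIC, GluRIID and GluRIIE, which are subunits of the receptor at the larval neuromuscular junction, and Grik, Ekar and clumsy had none. The scaffold gene Grip also had none. For these 8 genes the table shows only that no position both passed the authors' filters and reached the depth that a cluster needs.

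Defining markers of the head were present. All 5 neuronal markers had clusters, with 7518 pooled reads for Syn to 57919 for Syt1. So had all 4 glial markers, with 3188 for moody to 62997 for Gs2, all 4 photoreceptor markers, with 69931 for ninaC to 1514215 for Arr2, and all 4 muscle markers, with 2961 for wupA to 151896 for Mlc2. Of 4 fat body markers 3 had clusters, with 278926 for apolpp to 481444 for Yp1, and Fbp1 had none.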

How the data were processed

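The xRIP-3′-seq libraries were made by the authors from 10 ng of RNA with an oligo(dT)-primed kit. Reads were trimmed with fastp and mapped with STAR 2.6.1b to dm6 (versions per the submitters' processing notes). The authors removed bases followed by at least 6 A or by 7 A among 10, except within 25 bases of annotated ends, kept signal up to 500 bases downstream of genes, extended peaks of at least 6 reads in 1 library by up to 15 bases, merged these into clusters and re-counted the reads. The deposited values are raw counts of reads per cluster, with no normalization. All 12 columns of counts lack a library name, and they were used only as their sum, which cannot show depth per library. No test was run, and the planned comparison of IP with input and of genotypes gave no result for this reason.

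Clusters listed more than once were counted once. Starts were read as 0-based and are given 1-based. The last base of each cluster on the strand of its gene was compared with the Ensembl 115 annotation and the RefSeq genome of the same assembly, with python 3.11.15 and numpy 2.4.6. The authors used an earlier Ensembl release. The functions for finding motifs, cutting sequence windows, placing clusters, extending 3′ UTRs, joining ends and computing intervals were tested on constructed or simulated data. For the motif search on the opposite strand, the test could not fail. Calls of hexamers and A stretches and the counts of reads beyond motifs had no test of their own. All 7 members are named, and of the wider list the 3 with the most pooled reads and every gene without a cluster, beside 2 receptor genes and the marker genes at the ends of each range, named after their values were seen. The members, the wider list of glutamate genes and the marker lists for neurons, glia, photoreceptors, fat body and muscle were chosen with earlier results of these data known. Protein and promoter sequences were not used here.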

Additional observations from a re-analysis of the deposited data

Results flagged for a closer look

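Reads outside the 3′ UTR and the 500 bases after an annotated end of the gene they name are signal outside the main measurement, and 5 of the 7 genes had them. Clusters in the 5′ UTR, in coding sequence or outside the gene held 18573 pooled reads for VGlut, of which 17023 lie in or at the end of CG46448, 1356 in the 5′ UTR and 194 in coding sequence. They held 1051 for GluClalpha, of which 669 lie in the 5′ UTR and 382 in coding sequence. For mGluR they held 905, for GluRIB 712 and for GluRIA 609, all in the 5′ UTR. No control without poly(A) priming is in the table, and the source of these reads was not tested.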

How the results depend on the processing

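Settings were changed one at a time. Over the 7 genes together, 15 of 23 values moved by less than their counting interval or, for counts of items, by no more than 1.5 times. Some of these could not move, here or for single genes. No member cluster names another gene, is listed more than once or holds under 20 reads. Leaving out such clusters, or counting every listing, therefore changed nothing. The share of reads at annotated ends, 31.1%, was 29.8% within 25 bases, 36.4% within 100 bases and 40.8% without the VGlut clusters in CG46448. The share at the most used end, 63.4%, was 65.9% with clusters up to 100 bases apart joined and 77.6% without clusters followed by an A stretch. The 13 motifs became 55 with TGTANA and 22 with TGTANAT, which are contained in the longer motif and must occur at least as often. The share of reads beyond the first motif, 98.4%, was 99.1% over annotated ends only. Of 157 values for single genes, 29 moved. Among them, the share of GluRIB at annotated ends fell to 22.4% within 25 bases, and that of GluClalpha was 12.8% within 100 bases. The 4 motifs of GluClalpha became 0 when its 3′ UTR was taken to the last annotated end, which lies in another last exon. The settings without the CG46448 clusters and with the 3′ UTR taken to the last cluster, and those for A stretches after any base of a GluClalpha cluster, were added after the data had been seen. No paired analysis was possible because the count columns carry no replicate numbers, and for the same reason no replicate could be left out. Depth per library is not known.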
